A study of Mus musculus with 6 samples.

Results

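Genes that mark plasmacytoid dendritic cells were compared between 3 spleen libraries of mice without a functional Was gene and 3 of wild-type mice. The 7 genes are Siglech, Ccr9, Tcf4, Ly6d, Pacsin1, Klk1 and Runx2, taken by symbol from a deposited table of 26452 genes, and all 7 were present and above the filter on low values. The knockout mice carried the Wastm1Sbs allele (Was -/-) on the 129S6/SvEvTac background, and the controls were 129S6/SvEvTac mice of the same supplier. All were males of 10 weeks, and RNA came from spleen tissue that was not sorted into cell types. Libraries KO451, KO452 and KO457 were made from knockout spleens, and WT453, WT454 and WT455 from wild-type spleens. Each has its own number in the labels, which do not state how many animals these are, so p-values measure the spread between these samples. The targeted allele is not restricted to 1 cell type.

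Plasmacytoid dendritic cells are a rare type of bone marrow derived cell that senses viral and self nucleic acids through the endosomal receptors Tlr7 and Tlr9 and answers with type I interferon. Their identity is set by the E protein Tcf4, a basic helix-loop-helix transcription factor, and the inhibitor Id2 opposes it in conventional dendritic cells. Runx2 is a runt-domain factor that these cells need to leave the bone marrow. In the spleen they are few beside B and T cells, and several of the 7 genes are also read in other cells, Tcf4 and Ly6d in B cells, Ccr9 in T cells, Runx2 in other lymphocytes and Klk1 in the pancreas, which lies against the spleen.

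The 250 bases before the RefSeq start (GRCm38.p6) are shown for Siglech, for Ccr9 and Klk1, the members nearest to it in pattern over the 6 libraries, and for Runx2, the only member whose groups did not overlap. Capitals mark E-boxes (CANNTG, the letters that E proteins such as Tcf4 read) and the RUNX core (TGTGGT, or ACCACA on the other strand), searched on both strands. Each sequence is written 5′ to 3′ on the strand of its gene, and a distance is counted from the first base of a match to the start. The entry for Pacsin1 was scanned too, that for Ly6d is not in the table used, and Tcf4 was not scanned.
Siglech promoter, chr7:55767934-55768183, plus strand: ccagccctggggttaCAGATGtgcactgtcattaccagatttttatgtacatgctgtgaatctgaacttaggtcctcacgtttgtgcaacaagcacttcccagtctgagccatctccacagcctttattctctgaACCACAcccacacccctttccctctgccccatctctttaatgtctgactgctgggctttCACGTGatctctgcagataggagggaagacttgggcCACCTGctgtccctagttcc
Klk1 promoter, chr7:44225110-44225359, plus strand: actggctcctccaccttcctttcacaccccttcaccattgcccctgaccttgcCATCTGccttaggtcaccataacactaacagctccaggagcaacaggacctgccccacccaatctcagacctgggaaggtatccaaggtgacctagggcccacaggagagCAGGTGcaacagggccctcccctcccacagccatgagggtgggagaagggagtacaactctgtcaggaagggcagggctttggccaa
Ccr9 promoter, chr9:123766961-123767210, plus strand: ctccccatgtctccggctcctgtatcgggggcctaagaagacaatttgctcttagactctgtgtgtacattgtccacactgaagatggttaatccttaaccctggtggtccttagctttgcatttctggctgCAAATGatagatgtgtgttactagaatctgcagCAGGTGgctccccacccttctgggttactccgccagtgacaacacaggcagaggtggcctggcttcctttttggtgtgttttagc
Runx2 promoter, chr17:44814628-44814877, minus strand: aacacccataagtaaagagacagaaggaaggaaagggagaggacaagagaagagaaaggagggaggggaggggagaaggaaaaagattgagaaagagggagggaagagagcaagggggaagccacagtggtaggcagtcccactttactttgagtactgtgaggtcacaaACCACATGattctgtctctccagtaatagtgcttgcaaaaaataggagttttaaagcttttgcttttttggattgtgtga

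The E-box form CAGGTG, or CACCTG on the other strand, was found in the windows of Siglech (20 bases before the start), Klk1 (87 bases) and Ccr9 (85 bases), and in 17.2% of all 32851 promoter windows of that length. Neither Runx2 nor Pacsin1 held it. Siglech had 3 E-boxes of any form in all, Klk1 and Ccr9 had 2 each, Runx2 had 1 and Pacsin1 had 0. Of all windows 66.2% hold at least 1. The RUNX core was found in the windows of Siglech (115 bases before the start), Pacsin1 (178 bases) and Runx2 itself (80 bases, where it overlaps the E-box), against 14.0% of all windows. These matches describe the letters only.

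Total reads assigned to genes ran from 30661759 to 38402758 a library, so that 3 reads, the most that a count of 0 allows, stand for 0.0781 to 0.0978 CPM (assigned reads put on a common million-read scale), counting error only. Was itself lay at 11.3 to 13.7 CPM in the knockout libraries and at 125 to 209 CPM in the wild-type libraries (log2 difference -3.66 ± 0.25 SE, limma adjusted p = 0.0117). The wild-type library WT453 had the highest neutrophil and the lowest macrophage values of the 6. On the log2 scale its average for 10 neutrophil genes exceeded that of all 6 libraries by 2.13, beside 1.40 in KO457 and -1.87 in WT454. For 11 genes of monocytes and red pulp macrophages it read -1.62 on the same measure, with WT454 next at -0.22. Genes of 1 list also differed in WT453. Of the B cell genes, Ms4a1 was at 89.8 CPM there, against 851 in WT454 and 648 in WT455. Cd37 was at 401 CPM, against 302 and 300. On the log2 measure, genes with 11 to 1405 exon bases had a median of 0.10 in WT453. For those with 5456 to 123179 bases it was -0.07. The cause was not tested. Results for the members, and for a part of the other genes, are given with and without WT453.

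None of the 7 genes passed the test between genotypes, and for all but Runx2 the log2 difference was smaller than the SD within either genotype. Over the whole table, limma called 2 of 22071 genes tested, or 0.00906%, and 0 of the 7 members. Before adjustment 0 members had a limma p under 0.05, against 11% of all genes. The authors' deposited table gives 0 members an FDR under 0.05, against 3.58% of its genes. Limma voom also called 0 members. By sign 3 were higher and 4 lower in knockout spleens, with a median log2 difference of -0.02, beside -0.03 over all genes tested. The groups did not overlap in 1 member, Runx2, which was lower in knockout spleens. Of all genes 19.5% had groups that did not overlap, 9.94% with the knockout libraries lower. In bulk spleen RNA, fewer cells of a type and less RNA per cell cannot be told apart.

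**Figure D1:**
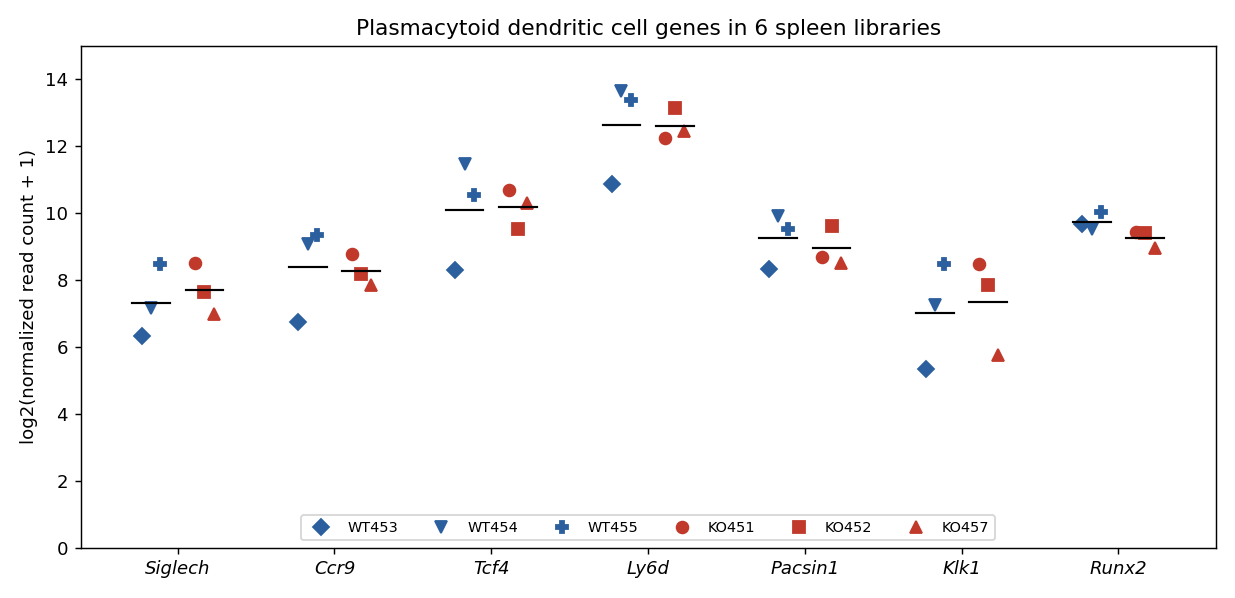
Each point is 1 library, placed by gene on the horizontal axis and by log2(normalized read count + 1) on the vertical axis, with wild-type libraries in blue, knockout libraries in red and a black line at each group mean. WT453, the blue diamond, is the lowest of the 6 points in every gene but Runx2.

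The clearest pattern among the members lay between libraries of 1 genotype. WT453 was the lowest of the 6 libraries in 6 of the 7 genes, where it was the lowest in 25.8% of all genes tested. Its median over the 7 genes, each centred on its mean, was -1.58 on the log2 scale. WT454 and WT455, of the same genotype, were each the highest library in 3 genes, and KO451 was the highest in the remaining gene, Siglech. By CPM WT455 was the highest for Siglech, at 11.3 against 9.72 in KO451. Without WT453 all 7 genes were lower in knockout spleens, with a median of -0.78 beside -0.02 over all genes. In that fit Ccr9 and Ly6d had a limma p under 0.05 before adjustment, and 0 members passed after it. That was 2 of 7, against 19.2% of all genes (9.53% with the knockout lower). Where WT453 was the lowest library, leaving it out had to lower the difference. The fit without WT453 is therefore no separate support for a difference between genotypes. Without WT455 the median was 0.36.

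**Figure D2:**
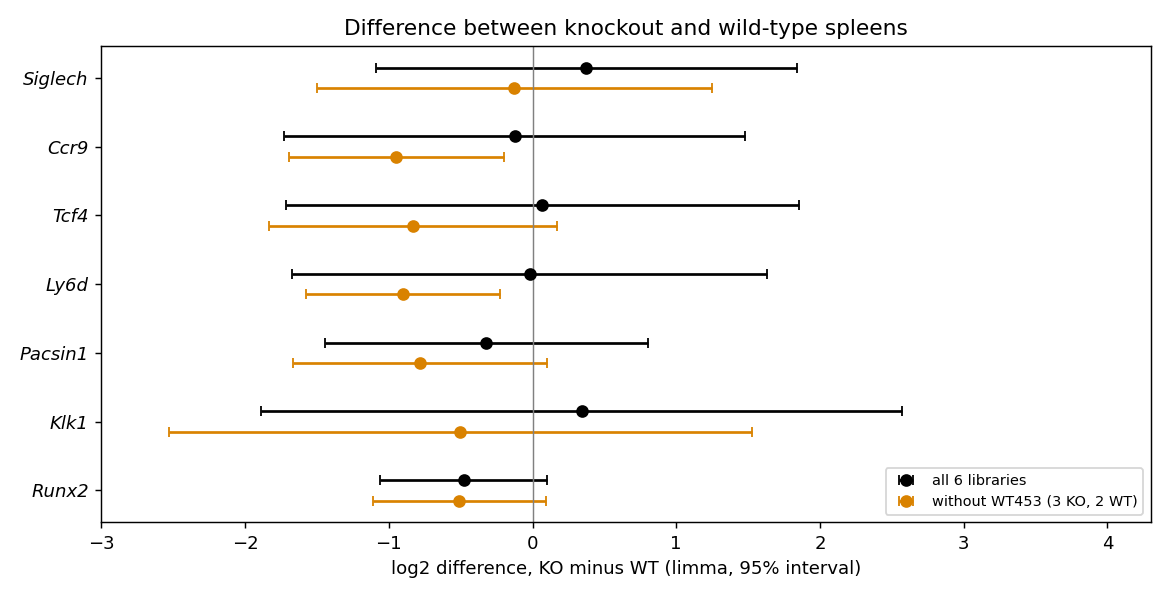
Points are log2 differences, knockout minus wild type, with 95% limma intervals, for all 6 libraries in black and without WT453 in orange. With all libraries every interval spans 0, and without WT453 those of Ccr9 and Ly6d lie below 0, although neither passed the adjusted threshold. WT453 was the lowest library for both genes.

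Siglech encodes a sialic acid binding lectin of the plasmacytoid dendritic cell surface that signals through the adaptor Tyrobp, and it is the most restricted of the 7 markers. Its log2 normalized count, log2(count + 1) as deposited and used for each gene below, was 6.33 in WT453, 7.17 in WT454 and 8.49 in WT455, and 8.50 in KO451, 7.64 in KO452 and 6.97 in KO457. The groups overlapped almost fully, and the highest library of each genotype, KO451 and WT455, were level. Mean levels were 6.36 ± 3.17 CPM (SD, n = 3) in knockout and 6.07 ± 4.62 CPM (SD, n = 3) in wild type. The log2 difference was 0.37 ± 0.62 (SE), with a 95% interval from -1.09 to 1.84, or 0.469 to 3.58 times the wild-type level (limma adjusted p = 0.862, exact permutation p = 0.7). It turned to -0.13 without WT453 and to -0.02 without KO451. Between 77 and 345 reads a library lay behind these values. Siglech (ENSMUSG00000051504) is protein-coding, on the plus strand of chromosome 7 at 55768178 to 55778925 in GRCm38, and no other gene model overlaps it.

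Ccr9 is the receptor for the chemokine Ccl25 and guides cells to the gut and thymus. Its log2 counts were 6.74 in WT453, 9.07 in WT454 and 9.35 in WT455, and 8.77 in KO451, 8.17 in KO452 and 7.86 in KO457. The knockout libraries lay together between WT453 and the other wild-type libraries, with means of 8.91 ± 2.71 CPM (SD, n = 3) against 13.6 ± 9.19 CPM in wild type. The log2 difference of -0.12 ± 0.68 (SE) had an interval from -1.73 to 1.48 (limma adjusted p = 0.968, exact permutation p = 0.9). Without WT453 it was -0.95 ± 0.31 (limma adjusted p = 0.202). The sign turned without KO457 (0.08), WT454 (0.22) or WT455 (0.36), and at 0.15 when libraries were scaled to 10 genes common to leukocytes. Its ligand Ccl25 averaged 1.65 CPM in knockout against 3.44 CPM in wild type (log2 difference -0.87 ± 0.51, limma adjusted p = 0.549). Ccl25 was highest in WT453, at 5.30 CPM, and its difference was -0.49 without that library. Ccr9 (ENSMUSG00000029530, chromosome 9, 123678439 to 123784330, plus strand) shares exon bases with 3 other models, Slc6a20a, Gm17200 and AC165425.1, and the strand setting of the counting is not given in the sources used here, so that a part of its reads is uncertain. Of these only Slc6a20a, at a mean of 5.95 CPM, was above 1 CPM.

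Tcf4, the E protein that directs the lineage, had log2 counts of 8.31 in WT453, 11.46 in WT454 and 10.55 in WT455, and of 10.70 in KO451, 9.53 in KO452 and 10.30 in KO457. The wild-type libraries spanned a 9.43-fold range in CPM that held every knockout value. Its log2 difference was 0.07 ± 0.76 (SE), with an interval from -1.72 to 1.85 (limma adjusted p = 0.986, exact permutation p = 0.9). That value was -0.83 without WT453 (adjusted p = 0.329), -0.19 without KO451 and 0.74 without WT454, and the small difference also changed sign with quantile normalization (-0.04) and in limma voom (-0.09). Tcf4 (ENSMUSG00000053477) is on the plus strand of chromosome 18 at 69343356 to 69689079, and no other model shares its exons.

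Ly6d is a small membrane-anchored protein of early lymphoid cells, B cells and lymphoid-derived plasmacytoid dendritic cells. It had by far the highest level per length of the 7. Ly6d had log2 counts of 10.87 in WT453, 13.64 in WT454 and 13.39 in WT455, and of 12.25 in KO451, 13.13 in KO452 and 12.46 in KO457. All knockout values lay between WT453 and the other wild-type libraries, and the means were 185 ± 73.9 CPM (SD, n = 3) in knockout and 267 ± 186 CPM in wild type. The log2 difference was -0.02 ± 0.71 (SE), with an interval from -1.68 to 1.63 (limma adjusted p = 0.998, exact permutation p = 1). Leaving out WT453 gave -0.90 ± 0.28 (limma adjusted p = 0.194). The sign turned without KO451 (0.16), KO457 (0.06), WT454 (0.48) or WT455 (0.36), and with leukocyte scaling (0.26). Ly6d (ENSMUSG00000034634) lies on the minus strand of chromosome 15 at 74762056 to 74763620, with no overlapping model.

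Pacsin1 encodes an F-BAR protein that bends membranes, binds dynamin and N-WASP, the relative of the protein missing in these mice, and takes part in the interferon response of plasmacytoid dendritic cells. The log2 counts were 8.34 in WT453, 9.92 in WT454 and 9.53 in WT455, against 8.69 in KO451, 9.63 in KO452 and 8.51 in KO457. WT453, KO451 and KO457 were low, KO452, WT454 and WT455 high, so that both groups had libraries in either range. The log2 difference of -0.32 ± 0.48 (SE), interval -1.45 to 0.80, did not pass (limma adjusted p = 0.838, exact permutation p = 0.8), and it was -0.78 without WT453 (adjusted p = 0.305) and 0.01 without WT454. Its widely expressed relative Pacsin2 averaged 101 CPM in knockout against 71.9 CPM in wild type (0.65 ± 0.31, adjusted p = 0.491). Pacsin1 (ENSMUSG00000040276) is on the plus strand of chromosome 17 at 27655509 to 27711482, free of other models.

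Klk1 is a tissue kallikrein, a serine protease of glands that is also read in plasmacytoid dendritic cells. Log2 counts were 5.33 in WT453, 7.25 in WT454 and 8.47 in WT455, and 8.47 in KO451, 7.85 in KO452 and 5.75 in KO457. Each genotype held 1 low library, WT453 and KO457, and 1 at the top, WT455 and KO451. With a log2 difference of 0.34 ± 0.95 (SE) and an interval from -1.89 to 2.57, it was the least precisely measured member (limma adjusted p = 0.930, exact permutation p = 0.8). Only 38 to 340 reads a library were assigned to it. The difference was -0.50 without WT453, -0.21 without KO451, 1.14 without KO457 and 1.07 without WT455. The 4 near copies Klk1b27, Klk1b9, Klk1b11 and Klk1b26 had 182 reads over all 6 libraries against 1172 for Klk1, and how the counting divided reads among such copies is not given in the sources used here. Of the pancreas digestive enzymes, Cpa1, Cpb1 and Prss2 had at most 5, 17 and 6 reads in any library, Cpa1 and Cpb1 0 in all 3 wild-type libraries, while Cela1, an elastase, averaged 38.6 CPM in knockout against 20.2 CPM in wild type (1.11 ± 0.26, adjusted p = 0.344). Ctrl, another gene of the pancreas list, was lower in knockout. Klk1 (ENSMUSG00000063903) is on the plus strand of chromosome 7 at 44225360 to 44229618.

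Runx2 was the member closest to the threshold and the only one in which the groups were apart. Its log2 counts were 9.69 in WT453, 9.52 in WT454 and 10.04 in WT455, and 9.44 in KO451, 9.40 in KO452 and 8.96 in KO457. Every knockout library was below every wild-type library, and WT453 ranked next to WT455, the highest. The means were 17.6 ± 3.45 CPM (SD, n = 3) in knockout and 27.1 ± 5.11 CPM in wild type. The log2 difference was -0.48 ± 0.25 (SE), with an interval from -1.06 to 0.10, or 0.479 to 1.07 times the wild-type level (limma adjusted p = 0.517). The exact two-sided permutation p was 0.1, the smallest that 3 against 3 can give. The difference stayed between -0.59 and -0.33 as each library was left out, with -0.51 without WT453. At -0.20 it was smallest with leukocyte scaling. In the authors' deposited table it has an FDR of 0.365. Runx2 (ENSMUSG00000039153) is on the minus strand of chromosome 17 at 44495987 to 44814797, and the antisense gene Runx2os1, at 0.207 CPM, shares exon bases with it.

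The relatives and partners of these transcription factors gave no call either. Runx1 (-0.26 ± 0.20 SE) and Runx3 (-0.50 ± 0.36), the other RUNX proteins of blood cells, and Cbfb (-0.40 ± 0.21), the subunit they all bind, had values below 0 like Runx2, with limma adjusted p of 0.655, 0.627 and 0.530. The median of 10 genes common to leukocytes was below 0 as well, at -0.31. Among the E proteins that pair with Tcf4 or act beside it, Tcf3 was at 0.24 ± 0.24 and Tcf12 at 0.83 ± 1.03. Tcf12 had 155 reads in WT453, the lowest of the 6, as for Tcf4, and was -0.52 without that library. Id2 averaged 98.4 CPM in knockout against 163 CPM in wild type (-0.53 ± 0.42, limma adjusted p = 0.672). It was highest in WT453, at 249 CPM, and its difference was -0.15 without that library. Spib and Irf8, further regulators of the lineage, were at -0.07 ± 0.62 and -0.29 ± 0.46. Of the 15 regulators listed, 5 were higher and 10 lower, with a median of -0.26, which ran from -0.32 without WT453 to -0.09 without WT454. None had a limma p under 0.05 before or after adjustment. Without WT453, 5 did before adjustment, all lower, where 9.53% of all genes were lower at that threshold. With leukocyte scaling 8 were higher and 7 lower, with a median of 0.02. Zeb2, a repressor of Id2, was at 1.12 ± 0.59 (0.38 without WT453), and Bcl11a, a zinc finger factor of the lineage, at -0.38 ± 0.28.

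Levels of different genes were compared per length, as CPM per kilobase of annotated exons. Ly6d, with 75.8 to 548 over the 6 libraries, was above all others, and even its lowest library exceeded the highest value of Klk1, 10.3. By median the order then ran Klk1 (5.42), Pacsin1 (2.63), Runx2 (2.47), Siglech (1.55), Tcf4 (1.45) and Ccr9 (0.993), and each of these neighbours overlapped over the libraries. Exon lengths join all transcripts of a gene, 27382 bases for Tcf4 and 10260 for Ccr9, so that genes with many transcripts are placed too low.

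**Figure D3:**
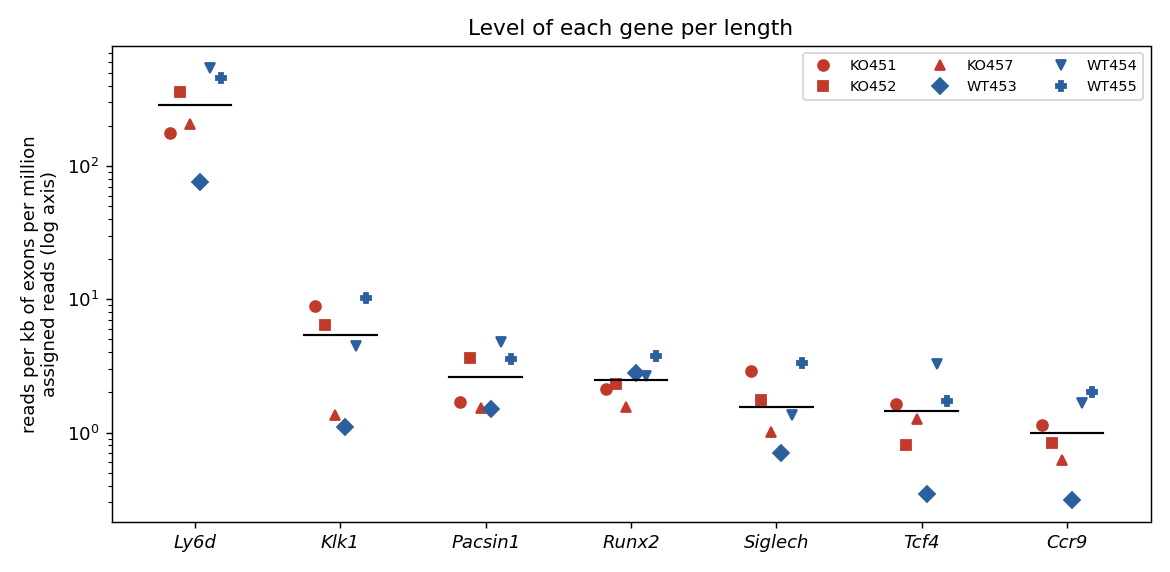
CPM per kilobase of annotated exons on a log axis, with 1 point per library and a black line at the median of the 6 libraries, ordered by that median. Ly6d stands above the other 6 genes, whose ranges overlap with those of their neighbours.

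The 7 genes did not share 1 pattern over the libraries. Likeness was measured as the root mean square, over the 6 libraries, of the difference between the log2 values of 2 genes after each was centred on its own mean, so that 0 is an identical pattern. Of the 21 pairs, Ly6d and Pacsin1 were the closest (0.47), followed by Ccr9 with Ly6d and with Tcf4 (both 0.48), Siglech with Ccr9 (0.54) and Siglech with Klk1 (0.56). Klk1 and Runx2 were the farthest apart (1.15). Within a library the log2 value of Klk1 less that of Siglech was between -0.03 and 0.21 in KO451, KO452, WT454 and WT455. It was lowest, at -1.22, in KO457, and WT453 was next, the 2 libraries with the fewest reads of Klk1. The same difference for Ly6d moved over 2.72 log2 units, from 3.76 in KO451 to 6.47 in WT454.

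Among the 11231 named genes with a mean normalized count of at least 50, those nearest to Siglech were Crybg3 (0.24), Ubd (0.25), Lrig1, Paip2 and Adrb1. Siglech was itself at rank 4 among the genes nearest to Klk1, while Klk1 was at rank 365 among those nearest to Siglech. Nearest to Ly6d were the kinase Tec (0.08), Ms4a1, which encodes the B cell surface protein CD20 (0.13), and Ikzf3, a lymphocyte transcription factor (0.13). Nearest to Pacsin1 were Myo1e (0.10), Zfp36l1 and Kat6b (both 0.11). Its distance was 0.19 both to the mean of 14 B cell genes and to that of 10 NK cell genes, and 0.21 to that of 14 T cell genes. Runx2 was nearest to Cwc22, Fbrs (both 0.10) and Thbs1 (0.11), Ccr9 to Fam120c (0.19), Cd209d (0.20) and Clock (0.21), and Tcf4 to Klhl11 (0.26), Lrrc8d (0.35) and Limd1 (0.37). For Klk1 the nearest were Styx (0.49), D13Ertd608e and C3ar1 (both 0.51). Genotype, library and depth are common to all these points, and with 6 libraries the distances are a description.

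**Figure D4:**
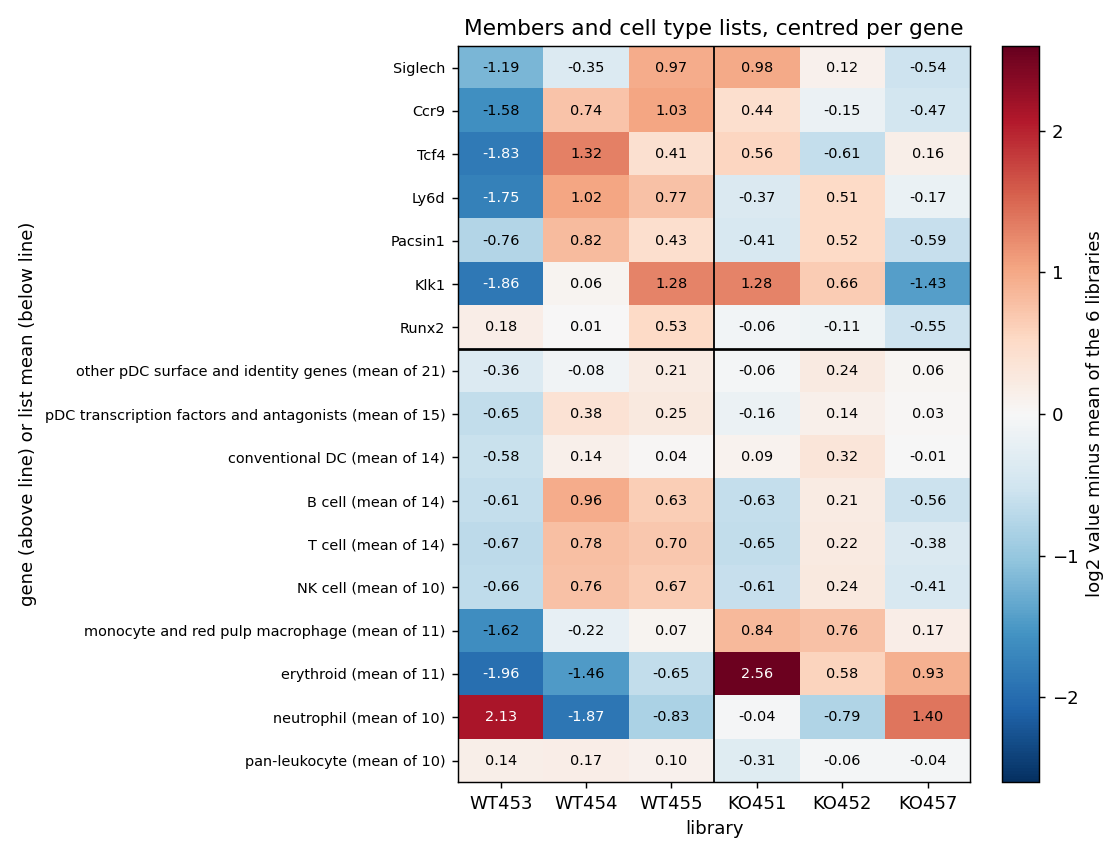
Rows are the 7 genes, above the line, and mean values of gene lists, below it, and columns are the 6 libraries. Colour and number give the log2 value less the mean of the 6 libraries, so that WT453 reads -1.19 for Siglech, -1.75 for Ly6d, 0.18 for Runx2 and 2.13 for the neutrophil list.

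A further 21 genes known from plasmacytoid dendritic cells were described in the same way. Their mean in WT453, centred on the 6 libraries, was -0.36 against -1.26 for the 7 members, and WT453 was the lowest library in 9 of them. Between genotypes 12 were higher and 9 lower in knockout spleens, with a median of 0.11, and 0 passed limma's adjusted threshold. That median ran from 0.06 without WT453 to 0.23 without KO451, and it was -0.04 in limma voom and 0.39 with leukocyte scaling (14 higher and 7 lower). Bst2, a surface protein used to sort these cells, averaged 67.8 CPM in knockout against 67.7 CPM in wild type (0.11 ± 0.24 SE, adjusted p = 0.902). Ptprs, a phosphatase receptor of these cells, was at -0.31 ± 0.21 and Cox6a2, a subunit of cytochrome oxidase, at 0.59 ± 0.56. Cadm1, an adhesion protein also found on cross-presenting dendritic cells (0.78 ± 0.29, limma adjusted p = 0.408), and Havcr1 (0.93 ± 0.39, limma adjusted p = 0.451) were the 2 of 21 under 0.05 before adjustment, a share no larger than the 11% of all genes. All of the defining markers Siglech, Bst2, Ptprs, Cox6a2, Ccr9, Spib and Irf8 had reads in every library, and several of them are shared with B cells or other dendritic cells.

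Genes of nucleic acid sensing, the function these cells are known for, showed no call. Of 20 listed, 14 were tested, 6 higher and 8 lower with a median of -0.15 (10 and 4 with a median of 0.12 with leukocyte scaling, and medians of 0.01 without KO451 and 0.03 without WT455). The 6 interferon genes listed had no entry under their symbols in the deposited table and were not analysed. Tlr7 averaged 34.9 CPM in knockout against 46.2 CPM in wild type (-0.15 ± 0.51 SE). Tlr9 was lower in knockout by mean CPM (34.1 against 41.0) but higher by mean log2 value (0.50 ± 0.92). Without WT453, where Tlr9 had 153 reads, the log2 difference was -0.68. Irf7, the factor that switches on interferon genes, was at 0.24 ± 0.30. Traf6, an adaptor downstream of both receptors, was at -0.44 ± 0.18 (limma adjusted p = 0.442), the only one of the 14 under 0.05 before adjustment, against 11% of all genes. Slc15a4, a transporter of the endosome that sensing by these receptors needs, was at -0.39 ± 0.24, and Ifnar1, a chain of the interferon receptor, at -0.40 ± 0.26. Of 10 growth signals of dendritic cells, 2 were higher and 8 lower (5 and 5 with leukocyte scaling), with a median of -0.27, which ran from -0.45 without WT454 to -0.19 without KO451. Flt3l, the cytokine that drives their formation, averaged 14.4 CPM in knockout against 24.7 CPM in wild type (-0.67 ± 0.24, limma adjusted p = 0.403), and its receptor Flt3 was at -0.30 ± 0.21.

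Chemokine receptors beside Ccr9 were mostly below 0. Of 11 genes in the list, which includes Ccl25, 2 were higher and 9 lower with a median of -0.52, and 0 passed limma's adjusted threshold. The median ran from -0.82 without WT453 to -0.29 without WT454, and it was -0.24 with leukocyte scaling (3 higher and 8 lower). Cxcr4, which holds cells in the bone marrow, was at -0.46 ± 0.21 (adjusted p = 0.485), and Cxcr3, a receptor for inflamed tissue, at 0.07 ± 0.50. Ccr10 was at -0.93 ± 0.38 (limma adjusted p = 0.445). Ccr2, a receptor of monocytes, was at 0.79 ± 0.52 and at 0.22 without WT453.

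Siglec relatives of Siglech were mixed. Siglecg, an inhibitory lectin of B cells, averaged 36.6 CPM in knockout against 109 CPM in wild type (-1.50 ± 0.29 SE, limma adjusted p = 0.344). The authors' deposited table gives it an FDR of 0.000247. Siglec1, of macrophages, was at 0.95 ± 0.65 and 0.18 without WT453. Tyrobp, the adaptor of Siglech, was at 0.43 ± 0.20 (adjusted p = 0.496), and Hcst, a related adaptor, at -0.71 ± 0.28 (adjusted p = 0.428). In this list of 11 measured genes, 4 were higher and 7 lower, with a median of -0.37. It ran from -0.75 without KO457 and -0.62 without WT455 to -0.31 without KO451, and it was -0.09 with leukocyte scaling (5 higher and 6 lower). Of 10 genes of the Pacsin family and its partners, a list that holds Was, 1 was higher and 9 lower (4 and 6 with leukocyte scaling), with a median of -0.45, and Was was the 1 call.

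Neighbouring cell types were set beside the members because the 7 genes are shared with them. Of 14 conventional dendritic cell genes, 8 were higher and 6 lower (11 and 3 with leukocyte scaling), with a median of 0.22, or 0.02 without WT453 and 0.04 without KO452, and their mean in WT453 was -0.58 when centred on the 6 libraries. Among them Zbtb46, a factor of conventional dendritic cells, was at 0.93 ± 0.23 (SE, limma adjusted p = 0.344). The authors' deposited table gives it an FDR of 0.00290. Cd24a (1.54 ± 0.36) and Snx22 (1.31 ± 0.42) were higher too. Dtx1 (-0.97 ± 0.38), Irf4 (-0.31 ± 0.38) and Flt3 (-0.30 ± 0.21) were lower. Before adjustment 3 higher genes and 1 lower gene of the 14 had a limma p under 0.05, against 11% of all genes.

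In the lymphocyte lists, 13 of 14 B cell genes were below 0, with a median of -0.74 that ran from -1.11 without WT453 to -0.38 without WT454. All 14 T cell genes were below 0, with a median of -0.51 that ran from -0.96 without WT453 to -0.26 without WT454. All 10 NK cell genes were below 0 too, with a median of -0.40 that ran from -0.96 without WT453 to -0.16 without WT455. With leukocyte scaling these medians were -0.46, -0.24 and -0.13, with 12 of 14, 12 of 14 and 8 of 10 genes below 0. None of these genes passed limma's adjusted threshold. Summed over the 14 genes, B cell transcripts ran from 1760 to 3632 CPM in knockout libraries and from 2165 to 6170 CPM in wild-type libraries. The members' values without WT453, such as -0.95 for Ccr9 and -0.90 for Ly6d, stand beside these lymphocyte lists, whose part in them was not tested.

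Among 11 genes of early B cells 10 were higher (median 1.03, or 0.69 without KO457), as were 11 of 11 of monocytes and red pulp macrophages (1.21, or 0.70 without WT453) and 8 of 10 of neutrophils (0.49, or 1.69 without WT453, -0.43 without WT454 and -0.12 without KO457). Of 10 plasma cell genes 5 were higher and 5 lower (-0.09, or 0.03 without WT455), and of 10 genes of stroma and endothelium 3 were higher and 7 lower (-0.26, or 0.36 without WT453). The acinar list had 5 of 6 tested genes higher, Klk1 among them, and 1 lower, Ctrl. Before adjustment 2 of the higher genes and Ctrl had a limma p under 0.05, against 11% of all genes. Without WT453 4 were higher and 2 lower. The median of the acinar list, 1.26, was 2.36 with a pseudocount of 0.01. Over genes with a mean normalized count of at least 10 it was 0.34, the value of Klk1 itself. The pan-leukocyte list had 1 of 10 higher (-0.31). In these lists 0 genes passed limma's adjusted threshold.

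Erythroid genes were higher in 11 of 11, with a median of 2.78. All 11 had a limma p under 0.05 before adjustment, against 11% of all genes, and 0 after it, and the authors' deposited table gives 9 an FDR under 0.05, against 3.58% of its genes. They summed to between 18509 and 54223 CPM in knockout libraries and between 1790 and 8048 CPM in wild-type libraries, and their part in the members' CPM was not tested. Scaling to 10 leukocyte genes raised the median log2 difference of all genes from -0.03 to 0.24. On that scale the members ran from -0.20 for Runx2 to 0.65 for Siglech, 5 higher and 2 lower, with a median of 0.26.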

How the data were processed

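Sequencing libraries of spleen mRNA, 3 from Was knockout and 3 from wild-type mice, were used. Per the submitters' processing notes, DESeq, STAR 2.5.3a, FastQC 0.11.5, StringTie 1.3.1c and the build GRCm38 are named, with no role stated. How reads were counted, and on which strand, is not given. Each log2 value that the authors deposited fits log2(count / size factor + 1), and 100% of values gave whole reads within 0.001. Their deposited p-value and FDR come from a test whose settings are not stated. Knockout columns end in a suffix that is not explained, and if it marks separate processing, that cannot be told apart from genotype.

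Limma 3.58.1 (R 4.3.3) with an intensity trend was fitted to the deposited log2 values of 22071 genes with a mean normalized count of at least 1, leaving out 4381, with Benjamini-Hochberg adjustment and a threshold of 0.05. CPM were computed from recovered reads. The fit was tested on simulated data. Exact permutation tests were two-sided. Positions and exon lengths came from GENCODE M21 (GRCm38), promoters from RefSeq GRCm38.p6. The members and the 19 lists were chosen with earlier results of these data known. Named genes are the members, Was, the nearest genes by pattern, set relatives, partners and dendritic cell markers, and from each list at most 3 with the smallest p in each direction and a mean normalized count of at least 10, of which a part is printed. Cpa1, Cpb1, Prss2 and the Klk1b genes were added after their values were seen. For low genes the added 1 makes fold changes too small. Alternatives were pseudocounts of 0.1 and 0.01, 2 filters, quantile, TMM and leukocyte scaling, no trend, voom and each library left out.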

Additional observations from a re-analysis of the deposited data

How the results depend on the processing

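With 3 libraries a group, the standard errors of the members ran from 0.25 to 0.95 on the log2 scale. The absence of a call therefore does not show equal levels, and differences inside the printed interval of each member were not excluded. The adjusted call was the same for every member in all 15 alternatives (0 called), and 0 were called at an unadjusted p threshold of 0.05 with all libraries. The median of the 7 differences ran from -0.78 (without WT453) to 0.36 (without WT455) as each library was left out. With each library left out in turn the differences ran from -0.13 to 0.95 for Siglech, -0.95 to 0.36 for Ccr9, -0.83 to 0.74 for Tcf4, -0.90 to 0.48 for Ly6d, -0.78 to 0.0065 for Pacsin1, -0.50 to 1.14 for Klk1 and -0.59 to -0.33 for Runx2. Other settings that turned a sign were leukocyte scaling, for Ccr9 (0.15) and Ly6d (0.26), and quantile normalization (-0.036) and voom (-0.093) for Tcf4. Leukocyte scaling subtracts a constant from each library, so it raised the difference of every gene by the same amount. For Tcf4 the cause was not tested. Over all genes, limma called 10 without trend, 1 with voom, 0 at a threshold of 0.01, 2 without WT453 and 0 without any 1 of the other 5 libraries. Of 285 list medians under alternatives, 270 moved by less than 1 SD of the list means between replicates and 15 by more. No paired analysis was possible because the knockout and wild-type libraries share no numbers in the labels.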
